A study of Mus musculus with 12 samples.

Results

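The Toll-like receptor genes of the mouse encode single-span membrane proteins that recognise microbial molecules and signal through a cytoplasmic TIR domain. They were taken as every row of the deposited gene table whose mouse Ensembl identifier maps to 1 of 10 symbols, Tlr1, Tlr2, Tlr3, Tlr4, Tlr5, Tlr6, Tlr7, Tlr8, Tlr9 and Tlr13, whatever its values. All 10 were found among 55401 rows, and 9 of them passed the filter on low values (10 normalized counts or more in 3 or more libraries) and were tested among 13369 genes. Tlr5 stayed under that level in every library. The other two receptor genes of the mouse, Tlr11 and Tlr12, did not exceed 2.78 and 3.04 normalized counts in any library.

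The samples were bone marrow-derived macrophages (BMDMs), which are grown from marrow precursors with the growth factor M-CSF (here 20 nM for 7 days). All came from C57BL/6J mice of genotype Irx3-/-, so every group lacked the endogenous Irx3 gene, which encodes a homeodomain protein of the Iroquois group. Adeno-associated virus (AAV) was used to overexpress 1 of 4 proteins: GFP, a fluorescent protein that serves as control, IRX3_WT, IRX3_S361A or IRX3_S389A, the last pair carrying alanine in place of the named serine. Every culture was then treated for 4 h with lipopolysaccharide (LPS, 100 ng/ml), the bacterial ligand of the receptor encoded by Tlr4, and total RNA was sequenced from 3 libraries a group. No unstimulated sample is among them, so the values describe receptor transcripts after LPS and not their induction. The sources do not name the promoter of the virus, and do not say whether the libraries of a group came from separate animals or cultures. The p-values therefore measure the spread between these libraries, which may be technical. In bulk RNA, fewer cells of a type and less RNA per cell cannot be told apart.

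As background, the proteins of Tlr1, Tlr2, Tlr4, Tlr5 and Tlr6 sit at the cell surface and bind lipoproteins, LPS or flagellin, whereas those of Tlr3, Tlr7, Tlr8, Tlr9 and Tlr13 are carried to endosomes by the chaperone Unc93b1 and sense nucleic acids. Most signal through the adaptor Myd88, Tlr3 uses the adaptor Ticam1 (TRIF), and Tlr4 uses both. The signals end in NF-kappaB and interferon regulatory factors, and macrophages are among the cells known for carrying most members of the family.

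The targeted gene was checked first. Irx3 had 0 reads in all 3 GFP libraries, which allows up to 2.67 to 2.78 normalized counts a library, and 165, 170 and 196 normalized counts in the IRX3_WT libraries. It reached 324, 364 and 358 in the IRX3_S361A libraries and 194, 203 and 165 in the IRX3_S389A libraries. Irx3 thus separated the GFP libraries from the 9 IRX3 libraries as labelled. It does not check which residue was replaced. IRX3_S361A cells held more Irx3 RNA than IRX3_WT cells (log2 difference 0.97, SE 0.19, limma adjusted p = 0.000197), so the effect of the substitution and that of more Irx3 RNA cannot be told apart in any comparison with IRX3_S361A. For IRX3_S389A against IRX3_WT the difference was 0.08 (SE 0.19, limma adjusted p = 0.839).

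Deposited totals ran from 17325311 to 19796325 normalized counts a library, from 17149058 to 20108002 reads. The macrophage identity was checked on markers: all 8 macrophage markers reached 10 normalized counts, and their summed level was 307537 to 315382 in GFP, 316330 to 319531 in IRX3_WT, 354060 to 362003 in IRX3_S361A and 326469 to 342047 in IRX3_S389A. Of these 8, 2 were called higher and 2 lower in IRX3_WT than in GFP, where 21.0% and 18.6% of all tested genes were. These shares also stand beside the marker counts that follow for IRX3_WT. For IRX3_S389A against GFP, 18.8% of all tested genes were higher. Among 9 neutrophil markers, Ly6g, Mpo and Elane were at 0 in every library and 2 reached 10: S100a8 averaged 12.8 normalized counts in GFP, 29.2 in IRX3_WT, 20.7 in IRX3_S361A and 23.1 in IRX3_S389A, and Camp 12.8 to 21.3. The neutrophil sum was 26.7 to 41.8 in GFP and 43.2 to 64.4 in IRX3_WT, with 28.3 to 48.7 and 32.5 to 51.3 in the variants, and 1 marker was called higher than GFP in IRX3_WT and in IRX3_S389A. No mast cell or erythroid marker reached 10. Of 8 T and NK cell markers 2 reached 10, and none was called in any comparison. Their sum was 100 to 119 in GFP, 91.0 to 116 in IRX3_WT, 103 to 116 in IRX3_S361A and 108 to 128 in IRX3_S389A. Of 6 plasmacytoid dendritic cell markers, Siglech, which defines these cells, did not exceed 2.76, while 3 were above 10. Bst2 averaged 6089 in GFP and 5418 in IRX3_WT, and Tcf4 1488 and 2086. Their sum was 7463 to 7933 in GFP, 7391 to 7727 in IRX3_WT, 7711 to 8143 in IRX3_S361A and 8155 to 9004 in IRX3_S389A, and 2 were called higher and 1 lower in IRX3_WT than in GFP. Sums over the 7 conventional dendritic cell markers, mostly Xcr1, were 119 to 149 in GFP and 160 to 172 in IRX3_WT. They were 140 to 159 and 147 to 186 in the variants, and 1 marker was called higher in IRX3_WT than in GFP. Ccr7 averaged 6.65 in GFP and 17.2 in IRX3_WT. Sums over the 7 B cell markers, mostly Ighm, were 35.6 to 47.3 in GFP, 17.7 to 33.0 in IRX3_WT, 17.1 to 29.8 in IRX3_S361A and 14.1 to 26.4 in IRX3_S389A. Sums over the 8 stromal and endothelial markers were 1048 to 1136 in GFP and 999 to 1252 in IRX3_WT. They were 1087 to 1268 in IRX3_S361A and 1505 to 1601 in IRX3_S389A. Kdr made up most of each sum, with means of 1050 in GFP and 1467 in IRX3_S389A. Cdh5, the next, averaged 26.4 and 32.3 in these groups. The part of these shifts in the receptor results was not tested.

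The DNA just before the start of a gene binds many of the factors that control it. RefSeq (build GRCm38.p6) gave upstream windows of 250 bases for 8 of the 10 receptor genes, in 10 windows, with no entry for Tlr4 and Tlr7. The sequences are shown for receptor genes that differed between constructs and that hold a motif outside the exons annotated by GENCODE M21. Each is cut to its longest stretch outside the gene's own exons and written 5′ to 3′ on the strand of the gene. Capitals mark the motif matches.
Tlr1, chr5:64933564-64933808, minus strand: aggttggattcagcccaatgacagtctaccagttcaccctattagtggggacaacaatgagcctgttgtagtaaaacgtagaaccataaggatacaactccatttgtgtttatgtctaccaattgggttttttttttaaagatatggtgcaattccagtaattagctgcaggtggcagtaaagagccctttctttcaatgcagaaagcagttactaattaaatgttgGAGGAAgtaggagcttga
Tlr13, chrX:106143025-106143203, plus strand: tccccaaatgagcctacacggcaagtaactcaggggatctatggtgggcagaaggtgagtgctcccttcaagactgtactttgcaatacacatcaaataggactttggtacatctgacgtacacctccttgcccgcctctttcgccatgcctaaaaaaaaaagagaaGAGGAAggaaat
Tlr2, chr3:83841768-83841858, minus strand: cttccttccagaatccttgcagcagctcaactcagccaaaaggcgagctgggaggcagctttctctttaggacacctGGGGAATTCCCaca
Tlr6, chr5:64959167-64959416, minus strand, within an annotated intron: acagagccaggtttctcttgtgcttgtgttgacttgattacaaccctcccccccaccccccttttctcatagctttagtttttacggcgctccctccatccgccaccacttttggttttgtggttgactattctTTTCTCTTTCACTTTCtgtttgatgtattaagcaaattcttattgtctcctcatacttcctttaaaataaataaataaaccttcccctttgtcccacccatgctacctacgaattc
Tlr8, chrX:167264330-167264579, minus strand: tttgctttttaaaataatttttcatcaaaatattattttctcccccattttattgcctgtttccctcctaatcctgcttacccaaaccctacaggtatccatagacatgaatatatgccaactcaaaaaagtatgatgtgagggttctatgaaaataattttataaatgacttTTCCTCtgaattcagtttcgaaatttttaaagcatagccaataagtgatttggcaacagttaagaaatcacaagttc
Tlr9, chr9:106222348-106222597, plus strand: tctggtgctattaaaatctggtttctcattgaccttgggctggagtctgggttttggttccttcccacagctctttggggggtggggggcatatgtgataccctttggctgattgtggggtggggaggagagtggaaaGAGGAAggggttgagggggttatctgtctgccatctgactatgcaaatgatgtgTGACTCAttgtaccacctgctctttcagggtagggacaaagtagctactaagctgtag

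In the Tlr13 stretch the capitals mark GAGGAA, the core bound by PU.1 and other ETS factors, 78 to 83 bases before the RefSeq start. Tlr1, Tlr8 and Tlr9 hold the same core, in Tlr8 on the opposite strand. It is common, being present in 23.3% of all 32851 RefSeq windows. The capitals in Tlr2 mark overlapping matches to the kappaB consensus, 163 to 173 bases before the start, a motif found in 7.25% of windows. Tlr3 also has a kappaB match (202 to 211 bases before its start), which lies in an annotated exon and is not printed. Tlr6 holds overlapping copies of the interferon-stimulated response element core GAAANNGAAA on the opposite strand, 101 to 116 bases before its start, which 2.98% of windows contain. Tlr9 also holds TGANTCA, the AP-1 motif, present in 6.75% of windows. The E-box CACGTG and the Iroquois palindrome ACANNTGT, found in 6.02% and 6.31% of windows, overlapped each other in 1 window of Tlr1 (chr5:64932700-64932949) and matched no other receptor window. All motifs were searched on both strands, and a match describes letters only.

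Levels of different genes were compared per kilobase of annotated exon. Tlr2 was the most abundant receptor transcript, with a mean over the 12 libraries of 3175 normalized counts per kb (2635 to 3627), above every other receptor in every library. Next came Tlr1 at 1316 (1048 to 1559), Tlr7 at 1064 (947 to 1256) and Tlr8 at 1022 (812 to 1237). Tlr13 followed at 697 (553 to 971). The ranges of neighbours from Tlr1 to Tlr13 overlapped, and Tlr7 exceeded Tlr8 in 7 of 12 libraries. These held all 3 GFP libraries (means of 1022 and 835 per kb) and no IRX3_S389A library (1115 and 1173). The order also turned with the construct for Tlr8 and Tlr13: in all 3 GFP libraries Tlr13 was above Tlr8 (means of 952 and 835 per kb), and in the other 9 libraries it was below. A gap separated Tlr13 from the lower receptors, which were Tlr3 at 312 (225 to 405), Tlr6 at 225 (168 to 261), Tlr4 at 219 (199 to 269) and Tlr9 at 178 (146 to 220). Tlr6 lay above Tlr4 in 8 of 12 libraries, and this order too differed by construct. In all 3 GFP libraries Tlr6 was below Tlr4 (means of 176 and 214 per kb). In the other 9 libraries it was above, except in IRX3_S389A replicate 3. Tlr5 was near the counting floor at 0.311 (0 to 1.16).

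**Figure D1:**
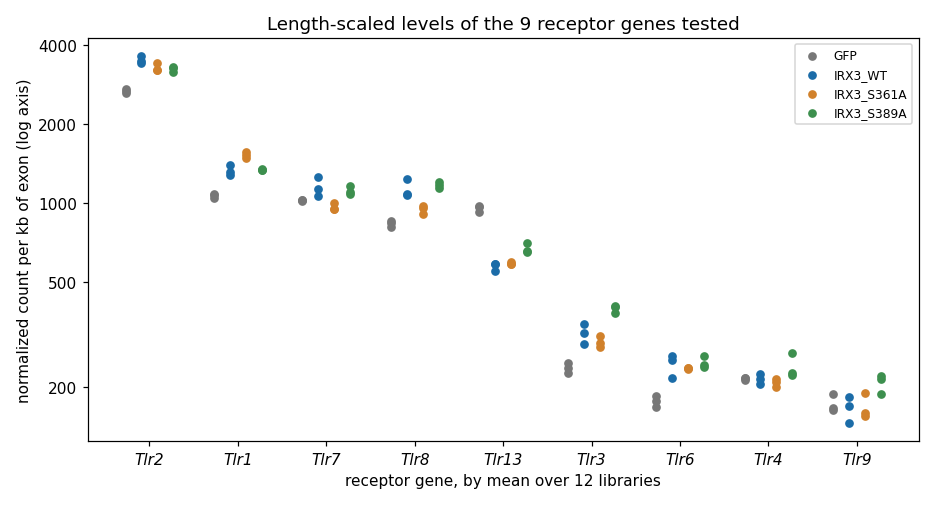
Normalized counts per kb of exon on a log axis for the 9 receptor genes tested, ordered by their mean over 12 libraries, with 1 point a library coloured by construct. Tlr2 stands above the rest at 2635 to 3627, and Tlr13 is the only receptor whose 3 GFP points lie above all points of the other constructs.

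Across the 4 constructs all 9 tested receptor genes differed (limma F-test, adjusted p under 0.05), where 44.2% of all tested genes did. Wild-type IRX3 against GFP changed 7 of 9, with 6 higher and 1 lower. The background was 39.6% of genes called, 21.0% higher and 18.6% lower, and the receptors' median log2 difference of 0.32 compares with -0.01 over all genes. IRX3_S361A against GFP changed 6 (5 higher, 1 lower) against a background of 25.9%, 14.9% higher and 10.9% lower, with median differences of 0.18 and 0.00 for receptors and all genes. IRX3_S389A against GFP changed all 9, with 8 higher and 1 lower, against a background of 35.0%, 18.8% higher and 16.2% lower. The median differences were 0.28 and -0.01.

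Fewer receptors separated the variants from wild-type IRX3. For IRX3_S361A, 3 of 9 passed (1 higher, 2 lower) against a background of 15.5%, 6.43% higher and 9.07% lower. For IRX3_S389A it was 4 of 9 (3 higher, 1 lower) against 15.3%, 8.21% higher and 7.08% lower. Between the variants themselves, 7 of 9 passed, with 6 higher and 1 lower in IRX3_S389A, against a background of 10.2%, 7.00% higher and 3.16% lower. The members' medians were -0.05, 0.05 and 0.20 in these 3 comparisons, and those of all genes 0.01, 0.00 and -0.00. The comparisons share libraries, and so are not independent of each other.

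**Figure D2:**
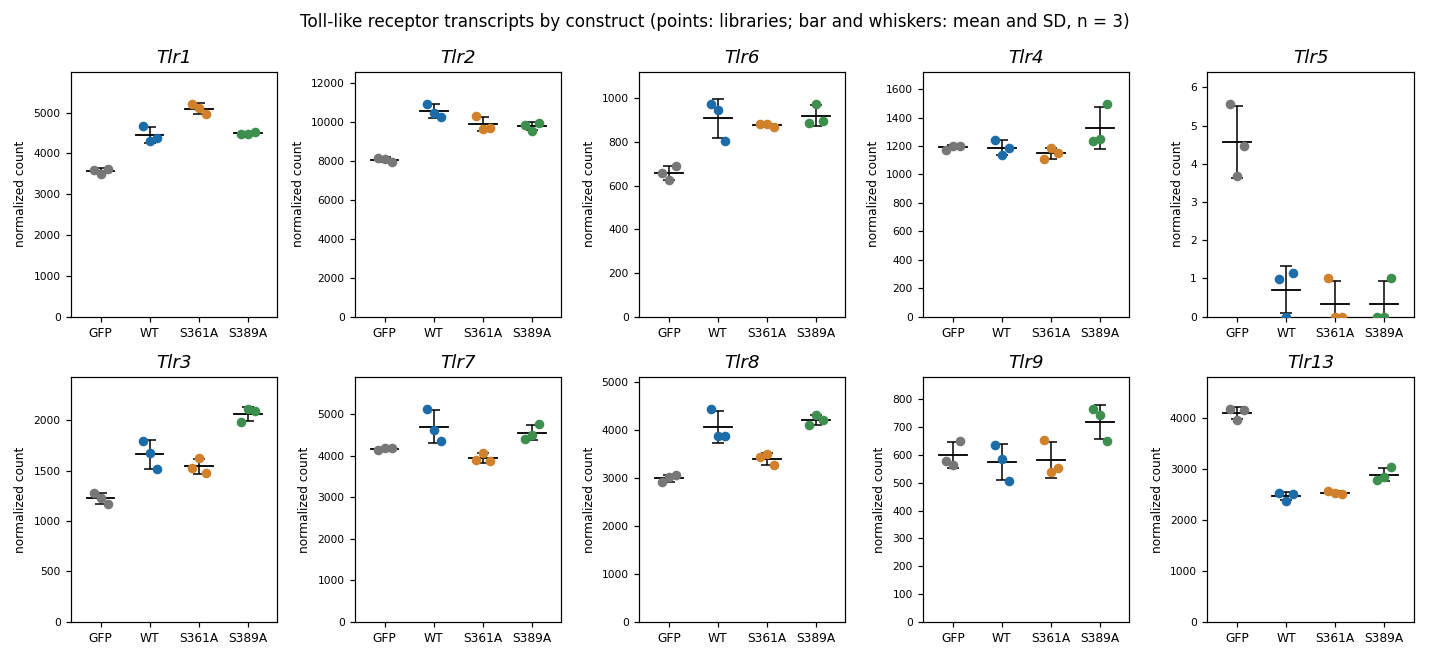
Normalized counts of the 10 receptor genes by construct, on axes that start at 0, with 1 point a library and the mean and SD of 3 libraries as bar and whiskers. The GFP libraries are the lowest for Tlr1, Tlr2, Tlr3, Tlr6 and Tlr8, the highest for Tlr13 and Tlr5, and neither for Tlr4, Tlr7 and Tlr9.

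Among the surface receptors, Tlr2 is the common partner in the heterodimers that bind bacterial lipoproteins. Its gene (ENSMUSG00000027995.10, GRCm38 chromosome 3, 83836272 to 83841767, minus strand) counted 8168, 8075 and 7941 in GFP, 10931, 10476 and 10272 in IRX3_WT, 10328, 9652 and 9688 in IRX3_S361A, and 9819, 9553 and 9942 normalized counts in IRX3_S389A. All 9 libraries with an IRX3 construct lay above all 3 GFP libraries. Tlr2 rose from 8061 ± 114 to 10559.7 ± 337 (SD, n = 3) with wild-type IRX3, a log2 difference of 0.39 (SE 0.04, limma adjusted p = 1.02e-11). The variants were also higher than GFP, by 0.29 for IRX3_S361A and 0.28 for IRX3_S389A. IRX3_S389A was lower than IRX3_WT by a log2 difference of -0.11 (limma adjusted p = 0.0265), and the libraries of these groups did not overlap. That call was lost without IRX3_WT replicate 1 (adjusted p = 0.138), IRX3_S389A replicate 1 (0.0663) or IRX3_S389A replicate 2 (0.135). For IRX3_S361A against IRX3_WT the difference was -0.09 (95% interval -0.17 to -0.02, adjusted p = 0.064), and the test was passed without IRX3_S361A replicate 1 (0.0197) or IRX3_WT replicate 3 (0.0423).

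Tlr1 and Tlr6 encode the partners of Tlr2 for triacylated and diacylated lipoproteins, and lie next to each other on chromosome 5, 18467 bases apart. They share 454 exact stretches of 50 bases, which are 13.6% of those in Tlr1 exons and 12.3% of those in Tlr6 exons. Reads in this part could be assigned to either, and both counts are uncertain at least to that extent. Counting all other genes, Tlr1 shared 513 such stretches (15.4%) with 307 genes. Tlr1 (ENSMUSG00000044827.10, chromosome 5, 64924679 to 64933563, minus strand) counted 3599.9, 3506 and 3619 in GFP, 4675, 4294 and 4385 in IRX3_WT, 5215, 5115 and 4964 in IRX3_S361A, and 4473, 4476 and 4521 normalized counts in IRX3_S389A. GFP was lowest and IRX3_S361A highest, with no overlap of either with another group. Tlr1 rose from 3575 ± 60.6 to 4452 ± 199 with wild-type IRX3 (log2 difference 0.32, SE 0.04, limma adjusted p = 1.69e-08). IRX3_S361A, at 5098 ± 126, exceeded IRX3_WT by 0.20 (SE 0.04, limma adjusted p = 0.000325) and GFP by 0.51 (3.61e-13). IRX3_S389A stood at 4490.1 ± 27.0, above GFP by 0.33, and differed from IRX3_WT by 0.01 (95% interval -0.07 to 0.09, limma adjusted p = 0.873). It was lower than IRX3_S361A, with a log2 difference of -0.18 (limma adjusted p = 0.00118). Tlr1 was thus the 1 receptor gene called higher in IRX3_S361A than in both other IRX3 groups.

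Tlr6 (ENSMUSG00000051498.7, chromosome 5, 64952031 to 64960097, minus strand) counted 655, 624 and 687 in GFP, 973, 945 and 804 in IRX3_WT, 879.6, 881 and 866 in IRX3_S361A, and 886, 974 and 897 normalized counts in IRX3_S389A. Again no GFP library reached the range of the others, while the IRX3 groups mixed or nearly touched. Relative to GFP (656 ± 31.6), Tlr6 rose by 0.46 in IRX3_WT (SE 0.07, limma adjusted p = 2.44e-07), by 0.42 in IRX3_S361A and by 0.49 in IRX3_S389A. The differences from IRX3_WT were -0.05 (95% interval -0.18 to 0.09) for IRX3_S361A and 0.02 (-0.11 to 0.16) for IRX3_S389A, with limma adjusted p of 0.708 and 0.872.

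Tlr4, whose protein is the receptor for the LPS given to every culture, had the smallest difference of the 9 between IRX3_WT and GFP. The gene (ENSMUSG00000039005.13, chromosome 4, 66827584 to 66930284, plus strand) counted 1173, 1199 and 1203 in GFP, 1243, 1138 and 1183 in IRX3_WT, 1107, 1186 and 1154 in IRX3_S361A, and 1234, 1252 and 1497 normalized counts in IRX3_S389A. IRX3_S389A replicate 3 stood apart from all the other libraries. IRX3_WT differed from GFP by -0.0050 (95% interval -0.13 to 0.12, limma adjusted p = 0.961) and IRX3_S361A by -0.05 (-0.17 to 0.07, limma adjusted p = 0.577). IRX3_S389A was called higher than GFP, by 0.15 (SE 0.06, limma adjusted p = 0.0462), and higher than IRX3_S361A, by 0.20 (0.0212). Without IRX3_S389A replicate 3 these log2 differences were 0.06 and 0.11 (limma adjusted p = 0.468 and 0.276). The first was also lost without GFP replicate 1 (0.125), 2 (0.0858) or 3 (0.0832) and without IRX3_S361A replicate 3 (0.0542), and the second without IRX3_S361A replicate 1 (0.0897) or 3 (0.0623). Other tools also lost the Tlr4 call against GFP, with adjusted p of 0.058 in edgeR and 0.0575 in DESeq2. Against IRX3_WT the IRX3_S389A difference was 0.16 (95% interval 0.03 to 0.28, limma adjusted p = 0.0729), and it passed without IRX3_S389A replicate 1 (0.0357).

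Tlr5, the flagellin receptor gene (ENSMUSG00000079164.8, chromosome 1, 182954788 to 182976044, plus strand), gave 6, 4 and 5 reads in the GFP libraries. The other 9 libraries gave 0 or 1 read each, in all 2 in IRX3_WT, 1 in IRX3_S361A and 1 in IRX3_S389A. Relative to the size factors that scale the deposited values, the 15 GFP reads were 6.52 times those of IRX3_WT. The exact 95% interval of 1.52 to 58.8 covers counting error only. With so few reads the gene was left out of the test, and its level was at most 5.57 normalized counts in any library.

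Of the nucleic acid sensors, Tlr13, which recognises bacterial ribosomal RNA, had the largest log2 difference from GFP in IRX3_WT and IRX3_S361A and was the only receptor gene called lower than GFP. It (ENSMUSG00000033777.4, chromosome X, 106143204 to 106160493, plus strand; its upstream stretch with GAGGAA is printed above) counted 4179.98, 3965 and 4152 in GFP, 2521, 2380.0 and 2518 in IRX3_WT, 2569, 2528 and 2514 in IRX3_S361A, and 2794, 2839 and 3038 normalized counts in IRX3_S389A. The GFP libraries lay far above the rest, and the IRX3_S389A libraries stood between GFP and the other IRX3 groups without overlap. Tlr13 fell from 4099 ± 117 to 2473 ± 80.7 with wild-type IRX3, to 0.603 of the GFP level, with a log2 difference of -0.73 (SE 0.04, limma adjusted p = 5.32e-17). IRX3_S361A, at 2537 ± 28.6, differed from GFP by -0.69 (limma adjusted p = 1.12e-15) and from IRX3_WT by 0.04 (95% interval -0.05 to 0.12, adjusted p = 0.638). IRX3_S389A, at 2890.4 ± 129, fell less: it was -0.50 from GFP, 0.22 above IRX3_WT (SE 0.04, limma adjusted p = 0.000199) and 0.19 above IRX3_S361A (adjusted p = 0.00241). The last of these was lost in 1 of 24 alternatives, edgeR on the 9 libraries with recovered reads. That fit leaves out IRX3_S361A replicates 2 and 3, so this group has no replicate in it.

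Tlr3 encodes the sensor of double-stranded RNA. Its gene (ENSMUSG00000031639.12, chromosome 8, 45395665 to 45411080, minus strand) shares 7.32% of its exon bases with Gm45542 on the opposite strand, and counted 1278, 1228 and 1169 in GFP, 1798, 1673 and 1511 in IRX3_WT, 1530.5, 1623 and 1475 in IRX3_S361A, and 1981, 2111 and 2091 normalized counts in IRX3_S389A. GFP was lowest and IRX3_S389A highest, neither overlapping another group, while IRX3_WT and IRX3_S361A overlapped. Tlr3 rose from 1225 ± 54.4 to 1661 ± 144 with wild-type IRX3 (log2 difference 0.44, SE 0.06, limma adjusted p = 3.12e-08) and to 1543 ± 75.0 with IRX3_S361A (0.33). It reached 2061 ± 69.8 with IRX3_S389A, 1.68 times GFP (0.75, SE 0.06, limma adjusted p = 6.55e-14). This exceeded IRX3_WT by 0.31 (limma adjusted p = 6.7e-05) and IRX3_S361A by 0.42 (1.06e-06). For IRX3_S361A against IRX3_WT the difference was -0.10 (95% interval -0.22 to 0.01, limma adjusted p = 0.229), which passed only without IRX3_WT replicate 3 (-0.17, 0.0401).

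Tlr7 and Tlr8, the genes of the single-stranded RNA sensors, are neighbours on the X chromosome, 40599 bases apart, and share no exact 50-base stretch. Tlr8 (ENSMUSG00000040522.5, chromosome X, 167242696 to 167264329, minus strand) counted 2911, 3010.3 and 3056 in GFP, 4434, 3862 and 3880.2 in IRX3_WT, 3435, 3496 and 3258 in IRX3_S361A, and 4099, 4311 and 4214 normalized counts in IRX3_S389A. The groups fell in 3 levels without overlap: GFP, then IRX3_S361A, then IRX3_WT together with IRX3_S389A. Tlr8 rose from 2993 ± 74.0 to 4059 ± 325 with wild-type IRX3 (log2 difference 0.44, SE 0.05, limma adjusted p = 3.41e-10) and to 4208 ± 106 with IRX3_S389A (0.49). IRX3_S361A, at 3396 ± 124, exceeded GFP by 0.18 (limma adjusted p = 0.00213, and 0.0545 without trend or robust settings). It was lower than IRX3_WT, with a log2 difference of -0.25 (SE 0.05, limma adjusted p = 7.6e-05), and IRX3_S389A exceeded it by 0.31 (5.64e-06). IRX3_S389A differed from IRX3_WT by 0.05 (95% interval -0.04 to 0.15, limma adjusted p = 0.483).

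Tlr7 (ENSMUSG00000044583.13, chromosome X, 167304929 to 167330558, minus strand) counted 4141, 4185 and 4189 in GFP, 5125, 4622 and 4348 in IRX3_WT, 3892, 4073 and 3864 in IRX3_S361A, and 4412, 4489 and 4756 normalized counts in IRX3_S389A. IRX3_S361A was the lowest group, GFP the next, and IRX3_WT and IRX3_S389A overlapped above them. Tlr7 rose with wild-type IRX3 from 4172 ± 26.6 to 4698 ± 394, by a log2 difference of 0.17 (SE 0.05, limma adjusted p = 0.00276). Without IRX3_WT replicate 1 the difference was 0.10 (limma adjusted p = 0.0628). IRX3_S361A, at 3943 ± 114, was below IRX3_WT, with a log2 difference of -0.25 (limma adjusted p = 9.65e-05), and its difference from GFP was -0.08 (95% interval -0.17 to 0.01, adjusted p = 0.199) although the libraries did not overlap. IRX3_S389A exceeded IRX3_S361A by 0.21 (limma adjusted p = 0.00156) and GFP by 0.13 (0.0282), the latter lost without any 1 GFP library (0.062 to 0.0816) or without IRX3_S389A replicate 3 (0.149), and in edgeR (0.0506). Without trend or robust settings limma gave Tlr7 adjusted p of 0.0549 for IRX3_WT against GFP and 0.0864 for the variants against each other. Both neighbours were thus lower in IRX3_S361A than in IRX3_WT by about the same log2 difference.

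Tlr9, the sensor of unmethylated CpG DNA, had the lowest count of the 9 genes tested. It (ENSMUSG00000045322.10, chromosome 9, 106222598 to 106226883, plus strand) counted 579, 564 and 652 in GFP, 635, 586 and 507 in IRX3_WT, 655, 538 and 553 in IRX3_S361A, and 765, 743 and 650.4 normalized counts in IRX3_S389A. The first 3 groups mixed, and IRX3_S389A lay higher but overlapped GFP and IRX3_S361A by 1 library. IRX3_WT differed from GFP by -0.06 (95% interval -0.23 to 0.12, limma adjusted p = 0.632) and IRX3_S361A by -0.04 (-0.22 to 0.13, adjusted p = 0.772). IRX3_S389A, at 719.6 ± 61.0 against 576 ± 64.3, was higher than IRX3_WT by 0.32 (SE 0.09, limma adjusted p = 0.00831), than GFP by 0.26 (0.0151) and than IRX3_S361A by 0.31 (0.0159). Each of these was lost in fits without 1 library. Against IRX3_WT these were IRX3_S389A replicate 1 (limma adjusted p = 0.0601) and IRX3_WT replicate 3 (0.0782). Against GFP they were GFP replicate 1 (0.0624) or 2 (0.0808) and IRX3_S389A replicate 1 (0.0837) or 2 (0.064), and against IRX3_S361A its own replicates 2 (0.0971) and 3 (0.0903) and IRX3_S389A replicates 1 (0.091) and 2 (0.0796). The summed stromal and endothelial markers given above, which were mostly Kdr, were highest in the 3 IRX3_S389A libraries, and so was Tlr3. The group means of Tlr4, Tlr6, Tlr8 and Tlr9 were also highest in IRX3_S389A, with libraries that overlapped another group, and the part of the markers was not tested.

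**Figure D3:**
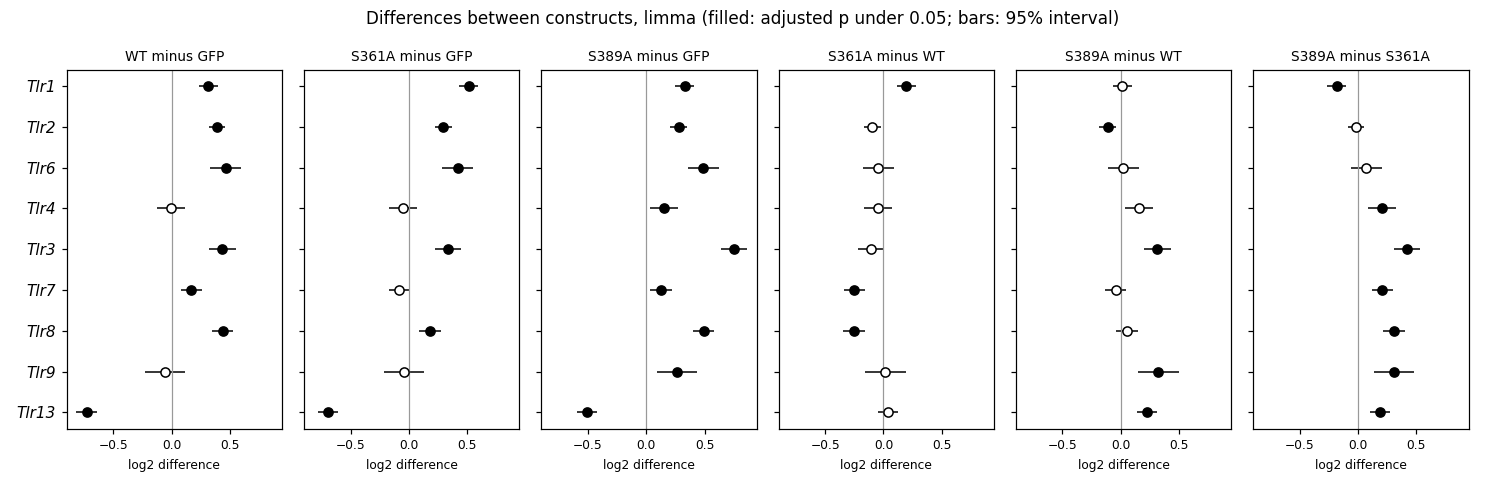
Log2 differences of the 9 tested receptor genes in 6 comparisons, with 95% intervals and filled points where the limma adjusted p was under 0.05. Tlr13 lies left of 0 in the 3 comparisons with GFP (-0.73, -0.69 and -0.50), and Tlr7 and Tlr8 lie left of 0 for S361A minus WT (both -0.25).

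The receptor calls against GFP depend in part on how libraries are scaled. The deposited values were divided by 1 size factor per library, which leaves GFP with lower totals than the other groups. Rescaling every library to equal totals moved the median of all tested genes by -0.18 in IRX3_WT against GFP, by -0.11 in IRX3_S361A against GFP and by -0.17 in IRX3_S389A against GFP. Over all genes, calls higher and lower went from 2805 and 2483 to 1395 and 5519 in the first, from 1996 and 1461 to 1047 and 3226 in the second, and from 2516 and 2160 to 1334 and 5397 in the third. The same change turned 859 higher and 1212 lower into 1805 and 754 for IRX3_S361A against IRX3_WT, and 936 and 423 into 597 and 1053 for IRX3_S389A against IRX3_S361A.

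With equal totals, Tlr1, Tlr2, Tlr3, Tlr6 and Tlr8 stayed higher and Tlr13 lower in IRX3_WT than in GFP, with log2 differences of 0.14, 0.21, 0.26, 0.29, 0.26 and -0.91. The Tlr7 rise was lost (-0.01, limma adjusted p = 0.885), and Tlr4 and Tlr9 were called lower (-0.18 and -0.23, adjusted p = 0.0104 and 0.0197), so 5 were higher and 3 lower. For IRX3_S361A against GFP, 4 were higher and 3 lower: the Tlr8 call was lost (0.07, limma adjusted p = 0.241), and Tlr4 (-0.17, 0.0293) and Tlr7 (-0.20, 0.000637) were called lower. For IRX3_S389A against GFP, 5 were higher and 1 lower, and the calls of Tlr4 (-0.02, limma adjusted p = 0.812), Tlr7 (-0.04, 0.413) and Tlr9 (0.10, 0.354) were lost. The Tlr4 difference between the variants was lost as well (0.15, limma adjusted p = 0.102). Equal totals multiply each library by 1 constant, so the members and the median of all genes shift nearly alike by design. That the members' differences relative to the median were nearly the same with deposited values and equal totals is therefore no separate result.

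**Figure D4:**
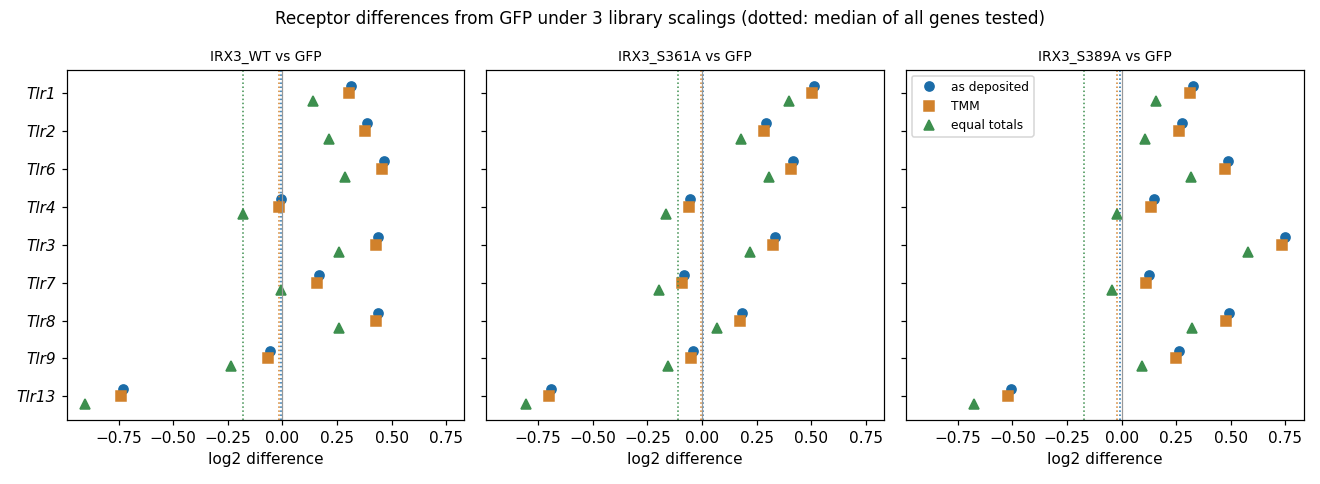
Log2 differences from GFP of the 9 tested receptor genes under 3 library scalings, with the median of all tested genes as a dotted line in the colour of the scaling. With equal totals all points shift left together with the median line (-0.18, -0.11 and -0.17), Tlr13 stays lowest, and Tlr4 and Tlr7 cross 0 for S389A.

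The genes that carry, process and transmit the receptors' signals were counted from lists by role. The genes with the smallest p across the constructs are named from each, and where a count is small its other members are also named, chosen after their values were seen. Of 9 co-receptor and chaperone genes, 8 were tested, and 4 were higher and 2 lower in IRX3_WT than in GFP (all genes: 21.0% and 18.6%), with a median log2 difference of 0.02. Cd14, which hands LPS to Tlr4 and lipoproteins to Tlr2, rose by 0.44 from 55063 ± 1307 to 74655 ± 804 normalized counts (limma adjusted p = 1.16e-14). Cd36, a scavenger receptor that works with Tlr2 and Tlr6, rose by 0.17. Cnpy3 and Hsp90b1, chaperones needed to fold most of these receptors, changed by -0.44 and -0.25, and 15.7% of the Hsp90b1 exon bases overlap another gene. Also higher were Ly96, the Tlr4 co-receptor MD-2, by 0.30 and Unc93b1, the endosomal chaperone, by 0.09. With equal totals the split was 1 higher and 5 lower. Cnpy3 was higher in IRX3_S361A than in IRX3_WT, by 0.36 (limma adjusted p = 5.07e-06), where Hsp90b1 was the other higher gene and Cd36 (-0.28) and Cd14 (-0.18) the 2 lower ones. In IRX3_S389A against IRX3_WT the 2 higher genes were Cd180 (0.35), which encodes the Tlr4-related RP105, and Hsp90b1 (0.16). Cd14 was the 1 lower gene (-0.20, limma adjusted p = 8.45e-06). Over all genes, 6.43% were higher and 9.07% lower in IRX3_S361A than in IRX3_WT, and 8.21% and 7.08% in IRX3_S389A.

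Of the 21 adaptor and kinase genes, 20 were tested, and 14 were higher and 2 lower with wild-type IRX3 than with GFP (all genes: 21.0% and 18.6%), with a median difference of 0.20. Irak2 and Tab2, which act downstream of Myd88, both rose by 0.54, Tbk1, the kinase that activates interferon regulatory factors, by 0.49, and Pik3ap1, an adaptor that links the receptors to phosphoinositide 3-kinase, by 0.36. The 2 lower genes were Tab1 (-0.75) and Traf3 (-0.20). IRX3_S361A differed from IRX3_WT by 5 lower and no higher gene, which were Ikbkg (-0.24), Tbk1 (-0.23, limma adjusted p = 3.38e-05), Ticam2 (-0.20), Tab2 (-0.15) and Irak2 (-0.11), and with equal totals this split was 2 higher and 2 lower. IRX3_S389A had 2 lower and no higher, Ticam2 (-0.25) and Chuk (-0.18). Of all genes, 9.07% were lower and 6.43% higher in IRX3_S361A than in IRX3_WT, and 7.08% and 8.21% in IRX3_S389A. With equal totals the split against GFP was 8 higher and 4 lower.

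The 16 genes of endosomal processing moved both ways, with 4 higher and 6 lower in IRX3_WT than in GFP (median -0.02, all genes 21.0% and 18.6%). Rab7b, a small GTPase that directs receptors to lysosomes, fell by 1.21 on the log2 scale, from 1467 ± 37.1 to 635 ± 32.3 normalized counts (limma adjusted p = 6.76e-19). The cathepsin gene Ctsl rose by 0.19, with 26.9% of its exon bases overlapping another gene. The other higher genes were Ap3b1 (0.33), which sorts cargo to lysosomes, and the ribonuclease genes Rnaset2b (1.03) and Rnaset2a (0.98), whose near-identical copies make both counts uncertain. The protease gene Ctss (-0.04, adjusted p = 0.253) and the nuclease gene Pld3 (0.01, adjusted p = 0.869) were not called. Compared with IRX3_WT, 9 of the 16 were higher, 3 lower and 4 not called in IRX3_S361A (median 0.13, all genes 6.43% higher and 9.07% lower). In IRX3_S389A 11 were higher, 1 lower and 4 not called (median 0.18, all genes 8.21% and 7.08%). The lower genes were Rnaset2a (-1.10), Rnaset2b (-0.72) and Ap3b1 (-0.11) in the first and Hmgb1 (-0.30) in the second. Ctss exceeded IRX3_WT by 0.21 and 0.26, Pld3 by 0.18 and 0.33 and Rab7b by 0.28 and 0.37 in these comparisons. With equal totals the wild-type split against GFP was 3 higher and 11 lower.

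Of 7 negative regulators 6 were tested, and 4 were higher and none lower in IRX3_WT than in GFP (all genes: 21.0% and 18.6%). Tnfaip3, the ubiquitin-editing enzyme A20, rose by 0.96 from 8113 ± 288 to 15747 ± 369 normalized counts (limma adjusted p = 4.09e-23), and Irak3, the inhibitory Irak family member, by 0.50. Cyld, a deubiquitinase, rose by 0.22 and Tollip, which binds Irak1, by 0.18. IRX3_S361A was lower than IRX3_WT for 3 and higher for none (all genes: 9.07% and 6.43%), with Tnfaip3 at -0.35 and Irak3 at -0.20. IRX3_S389A was lower than IRX3_WT for 2 (all genes: 7.08%), with Tnfaip3 at -0.12 and Irak3 at -0.24. With equal totals 2 stayed higher than GFP and none was lower.

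Among 11 transcription factors that receive these signals, 7 were higher and none lower with wild-type IRX3 than with GFP (median 0.37, all genes 21.0% and 18.6%). Rel, Nfkb2 and Nfkb1, subunits of NF-kappaB, rose by 0.61, 0.60 and 0.59, and Irf1, an interferon regulatory factor, by 0.58, and 18.1% of the Nfkb2 exon bases overlap another gene. With equal totals 6 were higher and 4 lower. Compared with IRX3_WT, 1 of the 11 was higher and 3 lower in IRX3_S361A (median -0.03, all genes 6.43% and 9.07%). In IRX3_S389A 3 were higher and 3 lower (median -0.05, all genes 8.21% and 7.08%). Irf1 was higher again in IRX3_S389A, by 0.27 over IRX3_WT (limma adjusted p = 5.72e-05), while Nfkb1 was lower in both variants (-0.19 and -0.15). Irf7 was higher than in IRX3_WT in IRX3_S361A (0.15) and IRX3_S389A (0.35). The 15 pattern receptor genes of other families gave 12 higher and 1 lower with wild-type IRX3 than with GFP (median 0.43, all genes 21.0% and 18.6%), the lower one being Tmem173, the gene of STING (-0.27). Ifih1, a cytosolic RNA sensor, rose by 0.90, the lectin receptor gene Clec4e by 0.82, and the inflammasome sensor gene Nlrp3 and the peptidoglycan sensor gene Nod1 by 0.78 each. Nod1 was higher still in IRX3_S389A (0.40 over IRX3_WT, limma adjusted p = 2.42e-06). IRX3_S361A had 1 higher (Clec4n, 0.37) and 7 lower than IRX3_WT in this family (all genes: 6.43% and 9.07%), and with equal totals 2 higher and 3 lower. IRX3_S389A had 7 higher and 3 lower than IRX3_WT (all genes: 8.21% and 7.08%).

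**Figure D5:**
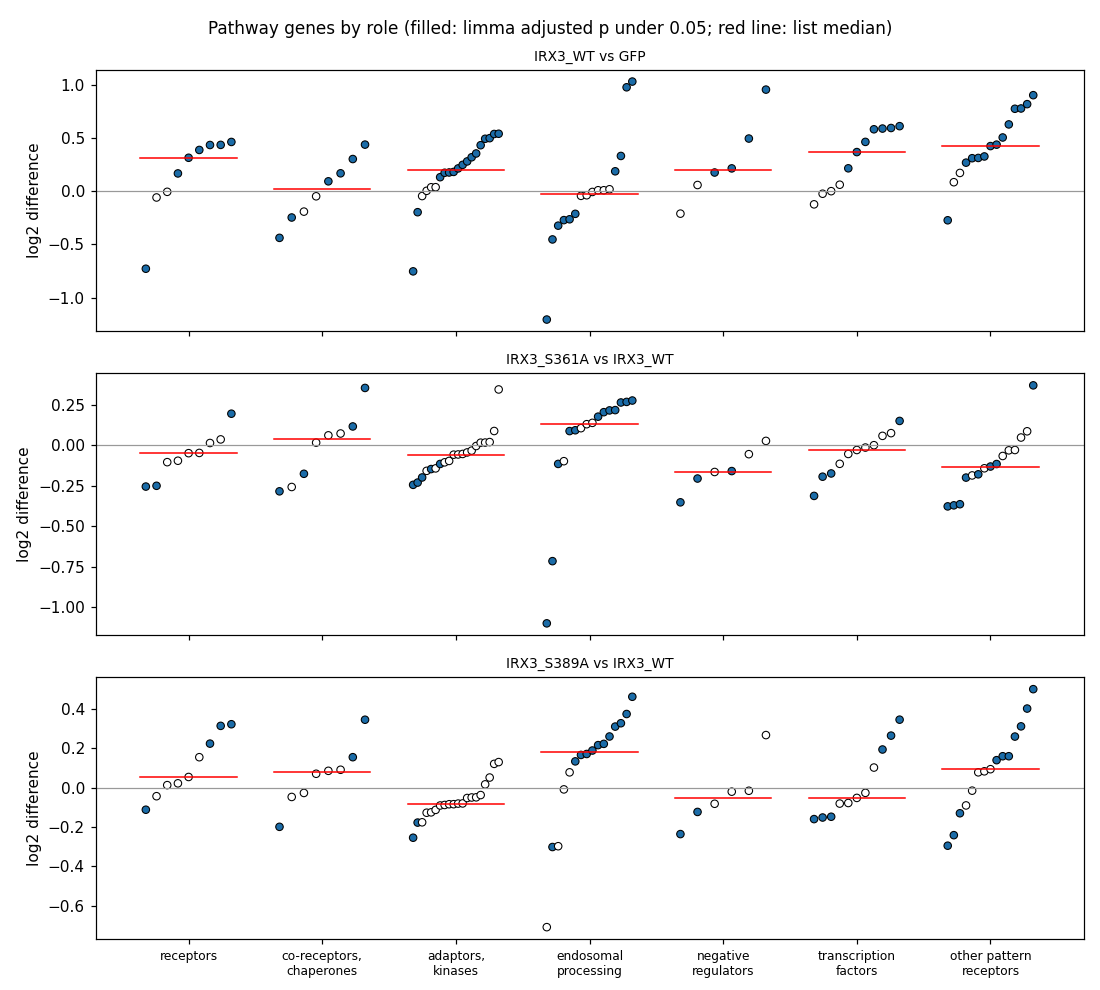
Log2 differences of every tested gene in the receptor list and 6 lists by role, for 3 comparisons, with filled points where the limma adjusted p was under 0.05 and a red line at each list's median. In the top panel the medians run from -0.02 for endosomal processing to 0.43 for other pattern receptors, with the receptors at 0.32.

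For the 3 receptor genes with the smallest p across the constructs, the genes with the most similar pattern over the 12 libraries were found by Pearson correlation of log2 values, which is a description since the libraries share their constructs. Closest to Tlr13 were Fam198b (r = 0.983), Apobec1 (0.981), Mtmr10 (0.980), Rap2a (0.978) and Dnmt3a (0.978). Closest to Tlr3 were Slfn9 (0.988), Phf11d (0.988), Ifi203 (0.986), Olfr56 (0.985) and Zc3hav1 (0.985). For Tlr1 they were Stard5 (0.959), Acp2 (0.958), Tnip3 (0.957), Kremen1 (0.955) and Capns1 (0.951).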

How the data were processed

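RNA-seq of 12 libraries, 3 for each of 4 constructs, was used as 1 table of 55401 genes. Per the submitters' processing notes the build was mm10 and the tools included Trimmomatic, HISAT2 2.1.0 and StringTie 1.3.5. Which program counted reads, with which strand setting and annotation, is not given in the sources used here, so counts of overlapping genes are uncertain. The deposited signal is a normalized count: in every library all values were whole multiples of 1 step (tolerance 1e-06), and that step times a median-of-ratios size factor was 1. The authors' values are therefore read counts divided by 1 size factor a library, with 1 read worth 0.890 to 1.14. In 3 libraries the step lies within 1% of 1, so whole reads count as recovered for the other 9 libraries only. The identifiers of 99.5% of rows matched GENCODE M21 (GRCm38, the sequence of mm10), which gave symbols, positions and exon lengths.

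After a filter on low values (a gene had to reach 10 normalized counts in 3 or more libraries), genes were fitted with limma 3.58.1 (trend and robust, R 4.3.3) on log2(value + 1), all 12 libraries in 1 fit with 8 residual degrees of freedom. Tests were two-sided, with Benjamini-Hochberg adjustment over all 13369 genes and a threshold of 0.05. Fold changes are on the log2(value + 1) scale, and intervals are 95% intervals of that fit. Libraries of a group differed beyond counting noise (chi-square per degree of freedom 2.73 to 5.11). Alternatives were other scalings, pseudocounts, filters, edgeR 4.0.16 and DESeq2 1.42.0 on recovered reads, a fit of only the groups compared, a replicate block and fits without each library in turn. The scripts were tested on simulated data. The members and lists were chosen with earlier results of these data known. All members are named, with up to 4 genes of each list by the smallest p across the constructs and the 5 genes most correlated with each of 3 receptors. The counting floor is 3 reads. The levels of some single marker genes are not reported here.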

Additional observations from a re-analysis of the deposited data

How the results depend on the processing

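Of 54 receptor differences (9 genes in 6 comparisons), 36 passed the test, and 25 of these passed it in the same direction under all 24 alternatives. The other 11 were lost under at least 1. These were Tlr4, Tlr7 and Tlr9 in IRX3_S389A against GFP and against IRX3_S361A, Tlr2 and Tlr9 in IRX3_S389A against IRX3_WT, Tlr7 in IRX3_WT against GFP, Tlr8 in IRX3_S361A against GFP and Tlr13 between the variants. The fits without trend or robust settings called 1278 genes in IRX3_S361A against IRX3_WT, 1173 (2 receptors) in IRX3_S389A against IRX3_WT and 684 (4 receptors) between the variants. edgeR on the 9 libraries, an alternative chosen after seeing the data, called 1377 genes in IRX3_S361A against IRX3_WT, 2253 in IRX3_S361A against GFP and 433 (3 receptors) between the variants, where Tlr13 had an adjusted p of 0.161. It has fewer libraries, and turned uncalled differences of Tlr6 in IRX3_S389A against IRX3_WT to -0.033 and of Tlr9 in IRX3_S361A against GFP to 0.12. Equal totals turned the sign of Tlr4 (0.015) and Tlr6 (0.017) in IRX3_S361A against IRX3_WT, of Tlr7 in IRX3_WT against GFP (-0.0086) and of Tlr4 (-0.019) and Tlr7 (-0.044) in IRX3_S389A against GFP. Without 1 library at a time, receptors called ranged from 6 to 7 in IRX3_WT against GFP, 3 to 5 in IRX3_S361A and 3 to 4 in IRX3_S389A against IRX3_WT, 6 in IRX3_S361A and 6 to 9 in IRX3_S389A against GFP, and 5 to 7 between the variants. In those fits some uncalled differences changed sign: against IRX3_WT, Tlr1 (-0.012 to 0.049), Tlr6 (-0.062 to 0.075) and Tlr7 (-0.097 to 0.021) in IRX3_S389A and Tlr6 (-0.13 to 0.0060) and Tlr9 (-0.073 to 0.088) in IRX3_S361A. Against GFP these were Tlr4 (-0.038 to 0.026) and Tlr9 (-0.13 to 0.030) in IRX3_WT and Tlr9 (-0.13 to 0.020) in IRX3_S361A, and between the variants Tlr2 (-0.034 to 0.015). The cause of these changes was not tested. The replicate block gave the same counts of receptors called (7, 3, 4, 6, 9 and 7) with 5241, 2023, 1982, 3387, 4637 and 1322 genes in the 6 comparisons. Same-numbered libraries did not deviate together (correlations of -0.04 to 0.03 over 18 pairs, and -0.04 to 0.05 for other pairs). Of the 12 libraries, 1 lay closest to its own number in every other group. With 3 libraries a group and counting noise in the deviations, this cannot exclude that the numbers pair libraries. With no filter on low values Tlr5 was called lower than GFP in both variants (limma adjusted p = 0.0241 and 0.0183) and not in IRX3_WT (0.0568). Its log2 values at the counting floor are no measure of size.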
